A study of Homo sapiens with 18 samples.

Results

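The RNA levels of 8 enzymes that supply NADPH, or that return carbon to its supply, were followed in human myeloma cells exposed to a ferroptosis inducer. The enzymes were PGD, PGLS, TKT, TALDO1, ME1, ME2, IDH1 and IDH2. They were taken by gene symbol, with no threshold on their values. All 8 were found among the 43735 genes of the count table, and 8 of 8 passed the filter on low counts that left 14281 genes to be tested.

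The cells were MM1R and MM1S, established myeloma lines of common origin that differ in their response to glucocorticoids. MM1S is glucocorticoid-sensitive, and MM1R is resistant and has little of the glucocorticoid receptor NR3C1. Each line was left untreated, given 5 µM RSL3 for 3 h, or given 2 µM ferrostatin-1 (Fer-1) for 2 h before the same RSL3 exposure. RSL3 inhibits the lipid peroxidase GPX4, and Fer-1 traps lipid radicals. No group received Fer-1 alone. Each of the 6 groups held 3 libraries, from passages 4, 6 and 7 of MM1R and passages 16, 22 and 23 of MM1S, so that the 3 treatments of a line could be compared within a passage. Each line stands for 1 cell population, and passage is the only separation between the libraries of a group that the labels give. The p-values therefore measure the spread between passages of these 2 lines.

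NADPH is the reducing power behind glutathione and thioredoxin recycling and behind fatty acid and sterol synthesis. In the cytosol it comes from the oxidative steps of the pentose phosphate pathway, from malic enzyme 1 and from isocitrate dehydrogenase 1. In mitochondria, isocitrate dehydrogenase 2 and malic enzyme 2, which also uses NAD, contribute. Several of these genes, among them PGD, TKT, TALDO1 and ME1, are known targets of NRF2, the transcription factor that binds antioxidant response elements under oxidative stress.

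The antioxidant response element has the core TGACNNNGC, and the 250 bases before the canonical start site were searched for it on both strands. It was present upstream of 3 of the 8 enzyme genes, 3 of 15 tested genes of the NRF2 target list used below and 12.1% of 11744 tested protein-coding genes. The 3 target genes with a match were GCLM, PRDX1 and ABCB6. Among the targets without one in this window were HMOX1, OSGIN1, GCLC, SRXN1 and SLC7A11. Of the enzymes with a match, ME1 was called higher after RSL3, IDH1 was called lower and PGD was not called. Whether a match relates to a change was not tested. All 3 matches of the enzyme genes are shown. Each is given 5′ to 3′ with 10 bases of the genome (hg19) on either side and with the match in capitals.
ME1: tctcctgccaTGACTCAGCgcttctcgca
IDH1: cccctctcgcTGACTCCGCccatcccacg
PGD: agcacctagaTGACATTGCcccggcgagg
The ME1 sequence is chr6:84140889-84140917 on the minus strand, 129 bases before the start site and outside any annotated exon. Its match also holds TGACTCA, the AP-1 site, which occurred in 2.32% of the same windows. The IDH1 sequence is chr2:209119920-209119948 on the minus strand, 135 bases before the start site, and it touches an exon of the antisense RNA IDH1-AS1. The PGD sequence is chr1:10458910-10458938 on the minus strand, 193 bases before the start site of this plus-strand gene. A match describes these letters and is not a measured binding site.

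The libraries held 17635438 to 19368343 counts. The plasma cell markers were above 1 CPM (the gene's reads per 1000000 reads of the scaled library total) in every library for 8 of 8 genes. All 4 B cell and all 3 myeloid markers stayed under 1 CPM, whereas CD3E of the T cell list and HBB of the erythroid list were above 1 CPM in every library. A pair of libraries stood apart. MM1R Fer-1 + RSL3 replicate 2 (passage 6) held NR3C1 at 50.2 CPM against 13.8 to 22.3 CPM in the other MM1R libraries. In the same library, 13 genes at least 8-fold higher in MM1S lay at a median of 51.7% of the way from their MM1R level to their MM1S level. MM1S RSL3 replicate 1 (passage 16) had the lowest scaling factor (0.864) and the highest NR3C1 (391.8 CPM) and HMOX1 (2298 CPM). The averaged RSL3 results on IDH1, ME1 and TALDO1 are given with and without them, as are named genes of other lists whose call they decided.

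Per kilobase of canonical transcript, the 8 genes fell into a high and a low set in untreated cells. In untreated MM1R, TALDO1 stood at 209 ± 34.2 CPM per kb, TKT at 174 ± 26.6, IDH2 at 156 ± 11 and PGD at 114 ± 20.4 (SD, n = 3). The low set held IDH1 at 23.9 ± 0.812 CPM per kb, ME1 at 22.4 ± 1.51, ME2 at 15.1 ± 2.09 and PGLS at 9.05 ± 0.279 (SD, n = 3). Libraries of TALDO1 and TKT, of TKT and IDH2, and of IDH1 and ME1 overlapped, and the other neighbours in this order did not. In untreated MM1S, the order was TALDO1 (227 ± 17.1 CPM per kb), TKT (164 ± 12.9), IDH2 (142 ± 12.1), PGD (94.7 ± 12.4), IDH1 (19.4 ± 1.26), ME1 (18 ± 2.89), ME2 (15.4 ± 3.10) and PGLS (10.8 ± 0.886; SD, n = 3). The order of the 8 means was the same in both lines. In MM1S, libraries of TKT and IDH2, of IDH1 and ME1, and of ME1 and ME2 overlapped, and the other neighbours did not. The canonical transcript of ME2 has 9031 bases, against 1008 to 3338 bases for the other genes. Before division by length, ME2 averaged 137 CPM in untreated MM1R, ME1 74.6 and IDH1 55.3. The place of ME2 in the order therefore depends on the transcript length used. PGLS, the lactonase between the dehydrogenase steps of the oxidative branch, rested on the fewest reads, 122 to 226 counts per library. Its annotated exons share 254 bases with the antisense RNA PGLS-DT, and whether the counting used strand is not given in the sources used here.

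**Figure D1:**
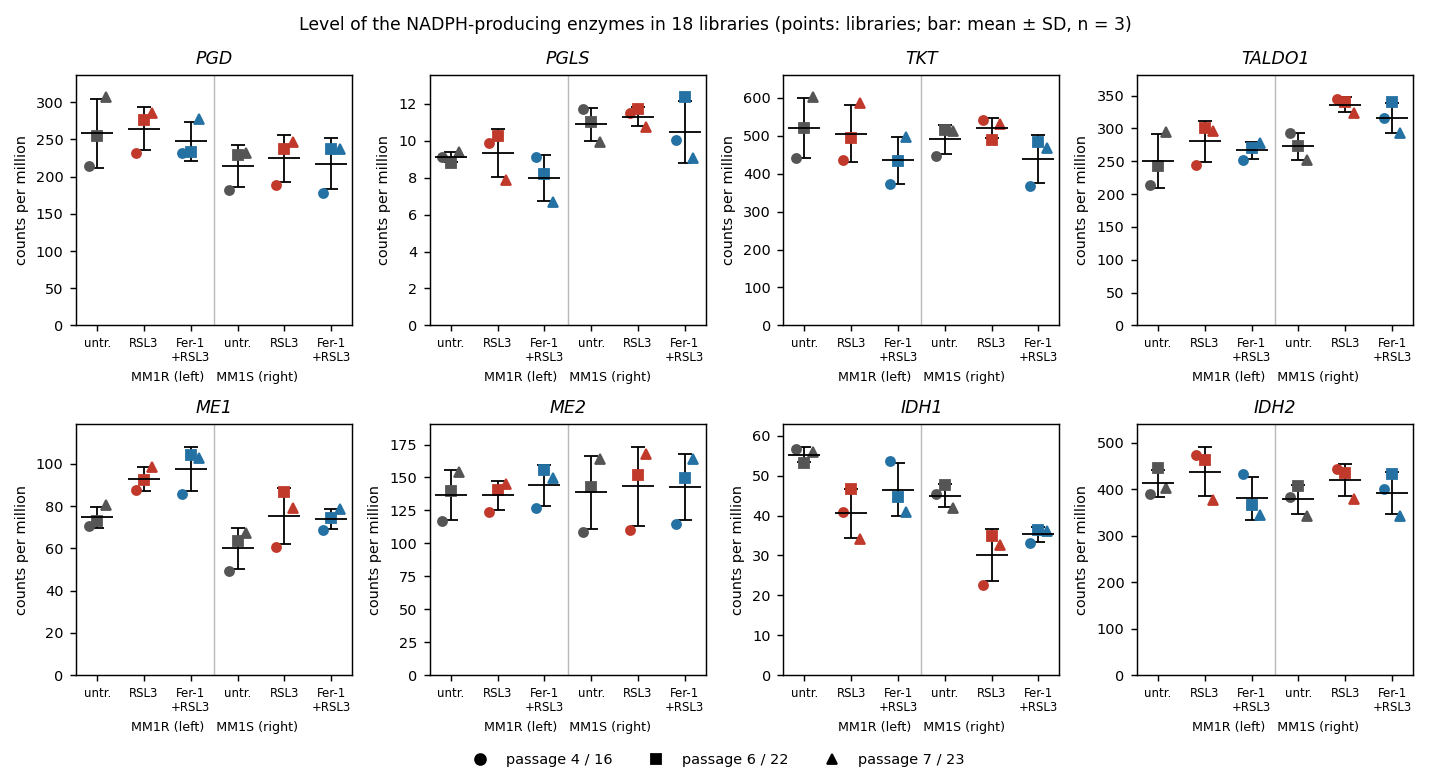
Level of each enzyme gene in CPM, with MM1R groups on the left and MM1S groups on the right of each panel. Points are libraries, shaped by passage, and bars are the mean ± SD of 3 libraries. IDH1 lies lower in the RSL3 libraries than in the untreated libraries of both lines, ME1 lies higher in MM1R, and ME2 and PGD are ordered by passage more than by treatment.

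RSL3 against untreated cells asked whether exposure to RSL3 shifted the transcripts of NADPH supply within 3 h. Averaged over both lines, 2 of the 8 enzymes changed, ME1 upward and IDH1 downward, and the other 6 were not called. Among all genes tested, 15.5% were called in this comparison, 8.7% higher and 6.81% lower, so that 1 call in each direction among 8 genes is near the background share. The median log2 fold change was 0.05 over the 8 enzymes and 0.00 over all genes tested.

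IDH1, the cytosolic and peroxisomal isocitrate dehydrogenase, showed the widest difference of the 8. In MM1R, it stood at 56.7, 53.2 and 56.0 CPM untreated and at 40.8, 46.6 and 34.2 CPM with RSL3 (passages 4, 6 and 7). In MM1S, it stood at 45.3, 47.6 and 41.9 CPM untreated and at 22.7, 34.9 and 32.7 CPM with RSL3 (passages 16, 22 and 23). The RSL3 libraries of each line lay below all its untreated libraries. The share of all genes whose groups did not overlap was not counted, so non-overlap here and below is a description only. Averaged over both lines, IDH1 fell by 0.51 on the log2 scale (SE 0.11, 95% interval -0.74 to -0.29, FDR = 0.0042), to 0.701 of the untreated level. This call held in 18 of 18 fits that left out 1 library each (FDR up to 0.0163), and without both libraries that stood apart the log2 fold change was -0.42 (FDR = 0.00790).

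Within the lines, the IDH1 difference was less secure. In MM1S, it was -0.58 (SE 0.15, FDR = 0.0425), which made IDH1 the 1 enzyme called of 8 where 3.67% of all genes were called. Without MM1S RSL3 replicate 1, the library with the lowest IDH1, the MM1S value was -0.41 (FDR = 0.200), and the call was kept in 6 of 18 fits that left out 1 library. Those 6 left out MM1R RSL3 replicate 2 or 3, MM1R Fer-1 + RSL3 replicate 1, MM1S RSL3 replicate 2 or 3, or MM1S Fer-1 + RSL3 replicate 1. Omitting any of the remaining 12 libraries ended it. In MM1R, IDH1 had a log2 fold change of -0.45 (SE 0.15, FDR = 0.114), and 0 of 8 enzymes were called beside 3.36% of all genes. Without MM1S RSL3 replicate 1, which enters the shared estimate of spread, IDH1 was called in MM1R (-0.44, FDR = 0.0329). By edgeR's test, 2 enzymes in MM1R (ME1 and IDH1) and 3 in MM1S (IDH1, ME1 and TALDO1) had an unadjusted p under 0.05, beside 18.5% and 19.5% of all genes.

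The passages pair the libraries, and a fit with passage as a block changed the calls. With the block, IDH1 was called in MM1R (log2 fold change -0.46, FDR = 0.0339) and in MM1S (-0.59, FDR = 0.0131). ME1 was likewise called in each line (0.31, FDR = 0.0263 in MM1R, and 0.33, FDR = 0.0237 in MM1S), and TALDO1 in MM1S (0.30, FDR = 0.0264). The block thus gave 2 called enzymes in MM1R and 3 in MM1S, beside 13.1% and 13.3% of all genes. Averaged over both lines it gave 3 of 8 (IDH1, FDR = 0.0012; ME1, FDR = 0.0016; TALDO1, FDR = 0.0074), beside 30.4% of all genes.

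ME1, the cytosolic NADP-linked malic enzyme, moved in the other direction. In MM1R, it stood at 70.6, 72.9 and 80.3 CPM untreated and at 87.5, 92.5 and 98.4 CPM with RSL3, with no overlap between the groups. In MM1S, it stood at 49.1, 63.4 and 67.5 CPM untreated and at 60.7, 86.4 and 79.2 CPM with RSL3, and the passage 16 library overlapped the untreated range. Averaged over both lines, ME1 rose by 0.32 on the log2 scale (SE 0.10, 95% interval 0.12 to 0.53, FDR = 0.0339), a 1.25-fold higher level. The call was kept in 10 of 18 fits that left out 1 library, with an FDR from 0.0069 to 0.0892. It was lost without any 1 of MM1R RSL3 replicate 1, 2 or 3, MM1R untreated replicate 1 or 2, MM1S untreated replicate 1, or MM1S RSL3 replicate 2 or 3. Without both libraries that stood apart, the averaged value was 0.39 (FDR = 0.00886).

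TALDO1 and TKT, the transaldolase and transketolase of the non-oxidative branch, differed from each other in their values. TALDO1 in MM1S stood at 293, 273 and 252 CPM untreated and at 345, 340 and 323 CPM with RSL3, without overlap. In MM1R, TALDO1 stood at 214, 242 and 295 CPM untreated and at 245, 301 and 296 CPM with RSL3, so that the groups overlapped. Its averaged log2 fold change was 0.23 (SE 0.08, FDR = 0.0693), short of the threshold. TALDO1 passed it with the passage block, with DESeq2 (FDR = 0.0452), with a stricter filter on low counts (FDR = 0.0352), and without MM1R RSL3 replicate 1 or MM1R untreated replicate 3 (FDR from 0.0202). Without both libraries that stood apart, TALDO1 had 0.23 (FDR = 0.111). TKT had an averaged log2 fold change of 0.02 (SE 0.10, FDR = 0.925), and its RSL3 libraries (436 to 586 CPM in MM1R, 489 to 541 CPM in MM1S) overlapped the untreated ones in both lines.

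The oxidative branch enzymes were not called by any of these fits. PGD, the second dehydrogenase of the branch, stood at 214, 254 and 307 CPM in untreated MM1R and at 232, 276 and 286 CPM with RSL3. In MM1S, PGD stood at 182, 230 and 232 CPM untreated and at 189, 238 and 247 CPM with RSL3. Its averaged log2 fold change was 0.05, with a 95% interval of -0.19 to 0.29. PGLS had 0.04 (interval -0.19 to 0.28), with libraries between 7.86 and 11.7 CPM under RSL3.

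The mitochondrial enzymes ME2 and IDH2 were not called either. IDH2 stood at 390, 446 and 404 CPM in untreated MM1R and at 475, 462 and 378 CPM with RSL3, and at 384, 407 and 344 CPM in untreated MM1S and at 444, 436 and 380 CPM with RSL3. Its averaged log2 fold change was 0.12 (interval -0.07 to 0.30), in contrast to the value of its cytosolic relative IDH1. ME2 had an averaged log2 fold change of 0.02 (interval -0.25 to 0.29). The 95% intervals of all 8 enzymes lay within 1 log2 unit of no difference in this comparison.

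**Figure D2:**
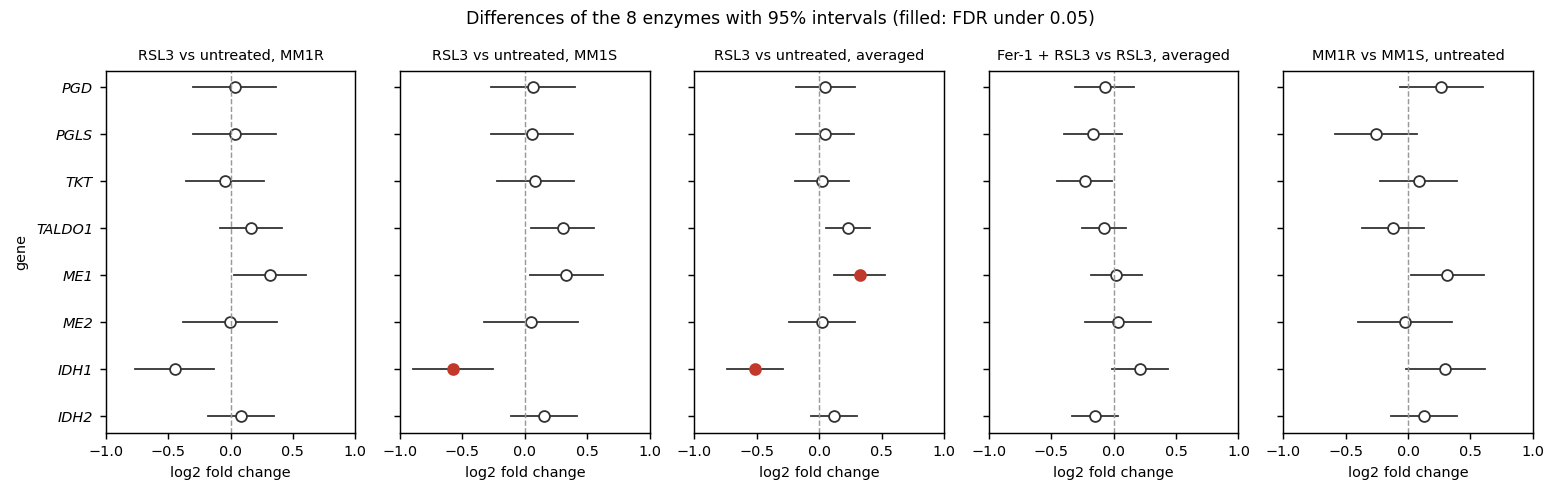
Log2 fold change (x axis) of each enzyme gene (y axis) in 5 comparisons, with 95% intervals from edgeR's quasi-likelihood fit. Filled points have an FDR under 0.05. IDH1 is filled in MM1S and in the average over both lines, ME1 in the average only, and no point is filled in the other comparisons.

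Differences between treated and untreated libraries of the same passage gave the directions without a group mean. With RSL3, IDH1 was lower in 6 of 6 passages, by 0.19 to 0.996 on the log2 scale, where 14.8% of all genes were lower in 6 of 6. ME1 was higher in 6 of 6 passages (0.23 to 0.45), and TALDO1 in 6 of 6 (0.0026 to 0.36), where 13.8% of all genes were higher in 6 of 6. PGD, ME2 and IDH2 were higher in 5 of 6, each with passage 7 of MM1R as the exception. TKT was lower in 4 of 6 passages, and PGLS was higher in 4 of 6.

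The IDH1 differences were set beside those of HMOX1, the haem oxygenase induced by oxidative stress, in the same libraries. IDH1 differed least in passage 6 (-0.19), where HMOX1 also differed least (3.76 on the log2 scale). IDH1 differed most in passage 16 (-0.996) and passage 7 (-0.71), where HMOX1 differed by 7.75 and 5.78. Passage 4 had an IDH1 difference of -0.47 with an HMOX1 difference of 4.12, passage 22 had -0.45 with 5.08, and passage 23 had -0.36 with 5.03. ME1 differed by 0.31 in passage 4, 0.34 in passage 6, 0.29 in passage 7, 0.31 in passage 16, 0.45 in passage 22 and 0.23 in passage 23. The passage 16 values with RSL3 come from MM1S RSL3 replicate 1, which stood apart. For Fer-1 + RSL3 minus untreated, HMOX1 differed by 5.26 to 6.96 and IDH1 by -0.45 to -0.08. The points share libraries and scaling factors, and the relation of IDH1 to HMOX1 was not tested.

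**Figure D3:**
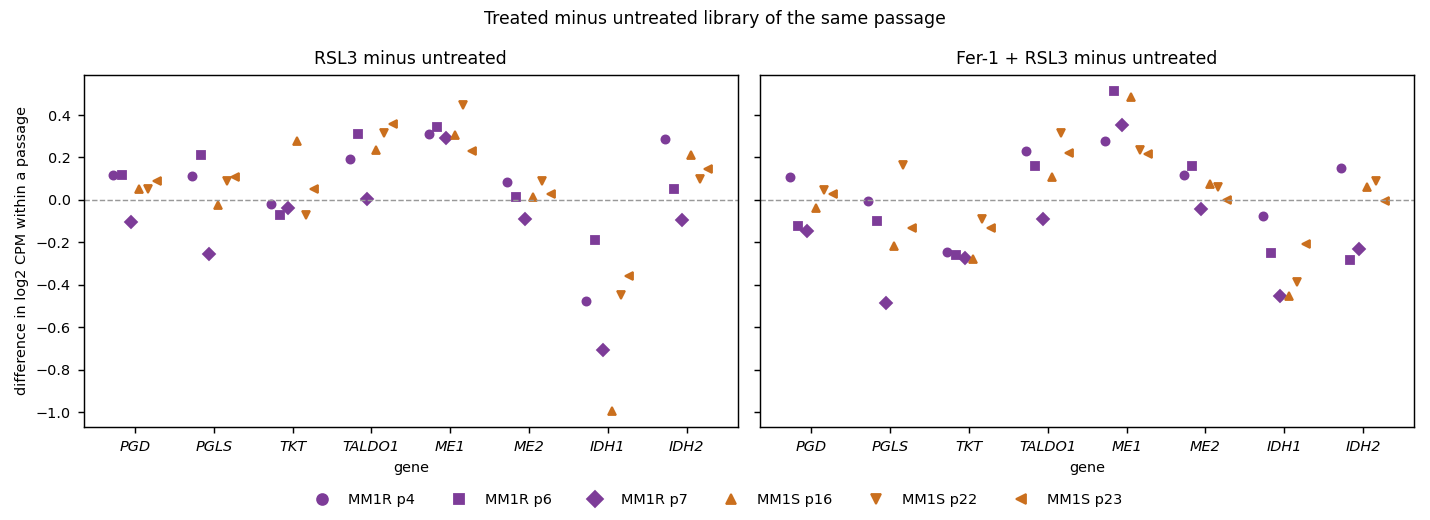
Difference in log2 CPM between the treated and the untreated library of the same passage (y axis) for each enzyme gene (x axis), with RSL3 on the left and Fer-1 + RSL3 on the right. Each symbol is 1 of 6 passages. All 6 IDH1 points lie below 0 and all 6 ME1 points above 0 in both panels, and all 6 TKT points lie below 0 with Fer-1 + RSL3.

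Passage moved several enzymes as far as treatment did. The range of the 3 passage means was wider than that of the 3 treatment means for 6 of 8 enzymes in MM1R and for 5 of 8 in MM1S. These counts include near ties, IDH2 in MM1R (0.2026 by passage, 0.2025 by treatment), PGLS in MM1R (0.245 and 0.222) and ME1 in MM1S (0.344 and 0.328). The share of all genes with a wider passage range was not counted. ME2 in MM1S was the clearest case, with passage means spanning 0.57 and treatment means 0.046 on the log2 scale. Its untreated libraries stood at 109, 143 and 164 CPM, its RSL3 libraries at 110, 152 and 168 CPM and its Fer-1 + RSL3 libraries at 115, 149 and 164 CPM (passages 16, 22 and 23). PGD in MM1S spanned 0.39 by passage and 0.063 by treatment. IDH1 was the opposite case, spanning 0.28 by passage and 0.60 by treatment in MM1S, and 0.22 and 0.46 in MM1R.

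The response to RSL3 was compared between the lines by a test of the difference itself. None of the 8 enzymes was called, as 0% of all genes were called by this edgeR test, and none of the 8 had an unadjusted p under 0.05, beside 1.55% of all genes. The difference of the log2 fold changes, MM1R minus MM1S, was 0.13 for IDH1 (95% interval -0.32 to 0.58) and -0.02 for ME1 (-0.43 to 0.40). It was -0.14 for TALDO1 (-0.49 to 0.21). These intervals do not show that the lines responded alike.

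Fer-1 + RSL3 against RSL3 asked whether Fer-1 given before RSL3 altered the transcripts. None of the 8 enzymes was called in either line, where 0% of all genes were called in MM1R and 0% in MM1S, nor in the average, where 0.119% were called. Beside these counts of 0, 0 enzymes in either line and 1 in the average had an unadjusted p under 0.05, beside 6.17% of all genes in MM1R, 5.75% in MM1S and 12.8% in the average. With the passage block, 0 enzymes were called as well, beside 0.175% of all genes in MM1R, 0.056% in MM1S and 2.37% in the average.

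TKT had the smallest p of the 8 in that average. It stood at 373, 434 and 498 CPM with Fer-1 + RSL3 in MM1R, against 436, 494 and 586 CPM with RSL3 alone. In MM1S, it stood at 367, 482 and 467 CPM, below all 3 RSL3 libraries (541, 489 and 531 CPM). The averaged log2 fold change was -0.23 (SE 0.10, FDR = 0.364, and with the passage block FDR = 0.0585). Without both libraries that stood apart, the averaged TKT value was -0.22 (FDR = 0.647). The value was lower with Fer-1 + RSL3 than with RSL3 in 6 of 6 passages for TKT, and also for PGD (0.0046 to 0.24 lower) and IDH2 (0.010 to 0.34 lower). Among all genes, 6.56% were lower in 6 of 6 passages.

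The mean of IDH1 with Fer-1 + RSL3 lay between those of the other groups in each line. It stood at 53.8, 44.7 and 40.8 CPM in MM1R and at 33.1, 36.5 and 36.2 CPM in MM1S. Against RSL3 alone, the averaged log2 fold change was 0.21 (SE 0.11, 95% interval -0.01 to 0.44, FDR = 0.419), higher in 5 of 6 passages. It was 0.12 without MM1S RSL3 replicate 1 (FDR = 0.673) and 0.14 without both libraries that stood apart (FDR = 0.720). The exception was passage 6, whose MM1R Fer-1 + RSL3 library held NR3C1 at an intermediate level. ME1 against RSL3 alone had 0.02 (interval -0.19 to 0.23), and its sign turned without both libraries that stood apart (-0.07).

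Fer-1 + RSL3 against untreated cells gave 0 called enzymes in MM1R, beside 9.22% of all genes, and 0 in MM1S, beside 4.61%. By edgeR, ME1 had an unadjusted p under 0.05 in both lines and IDH1 in MM1S, beside 24.6% of all genes in MM1R and 18.8% in MM1S. ME1 stood at 85.5, 104 and 103 CPM in MM1R and at 68.7, 74.6 and 78.5 CPM in MM1S, above every untreated library of its line. The log2 fold change of ME1 was 0.39 in MM1R (SE 0.14, FDR = 0.0898) and 0.30 in MM1S (SE 0.14, FDR = 0.248). With the passage block, ME1 was called in MM1R (0.38, FDR = 0.0060) and in MM1S (0.31, FDR = 0.0246), and TKT in MM1R (-0.26, FDR = 0.0459), beside 22.2% and 14.7% of all genes. Without MM1S RSL3 replicate 1, ME1 in MM1R passed the threshold without a block too (FDR = 0.0403), but not without both libraries that stood apart (0.34, FDR = 0.130). IDH1 had -0.25 in MM1R (FDR = 0.315) and -0.35 in MM1S (FDR = 0.210), and it was lower than untreated in 6 of 6 passages, as was TKT, where 16% of all genes were. ME1 was higher in 6 of 6 passages, as were 17.1% of all genes. In the same comparison, HMOX1 had a log2 fold change of 5.67 in MM1R (SE 0.82) and 6.67 in MM1S (SE 0.87). This comparison and RSL3 against untreated share their untreated libraries.

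Untreated MM1R was set against untreated MM1S to ask whether the lines differed in these enzymes before treatment. None of the 8 was called, beside 10.5% of all genes, and 1 (ME1) had an unadjusted p under 0.05 by edgeR, beside 24.8% of all genes. ME1 had a log2 fold change of 0.31 (SE 0.14, FDR = 0.165) and IDH1 of 0.30 (SE 0.15, FDR = 0.228). For both genes all untreated MM1R libraries lay above all untreated MM1S libraries, but the share of all genes that separate in this way was not counted. PGLS had -0.26 (SE 0.16, FDR = 0.338), with 8.82 to 9.38 CPM in MM1R and 9.94 to 11.7 CPM in MM1S. The lines share no passage, so that line and passage cannot be told apart.

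Other genes of NADP metabolism were counted in lists for RSL3 against untreated cells, averaged over both lines. Of 11 tested genes linked to the pentose phosphate pathway, 0 were called higher and 1 lower (median log2 fold change -0.16). The gene was RPIA, the ribose 5-phosphate isomerase (-0.51, SE 0.16, FDR = 0.0369). Without both libraries that stood apart, RPIA had -0.39 (FDR = 0.0658). Among 11 tested genes of other NADPH sources and of NADP supply, 2 were called higher and 0 lower (median 0.03). These were MTHFD2 (0.68, SE 0.11, FDR = 7.3e-04) and ALDH1L2 (0.86, SE 0.25, FDR = 0.0314), which are mitochondrial enzymes of one-carbon metabolism. MTHFD2 stood at 249 to 285 CPM in untreated MM1R and at 414 to 469 CPM with RSL3. In MM1S, MTHFD2 stood at 242 to 448 CPM untreated and at 513 to 574 CPM with RSL3.

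The NAD-linked relatives of the enzymes gave 0 genes higher and 1 lower of 5 (median -0.04). The gene was IDH3A, the catalytic subunit of the mitochondrial NAD-dependent isocitrate dehydrogenase (-0.35, SE 0.11, FDR = 0.0459), and it had -0.27 without both libraries that stood apart (FDR = 0.123). Of 17 tested glycolysis genes, 2 were higher and 1 lower (median -0.07). The glucose transporter SLC2A3 had 2.59 (SE 0.64), aldolase ALDOA 0.65 (SE 0.16) and enolase ENO2 -0.51 (SE 0.13). The ALDOA value rested on low levels, 2.02 to 2.72 CPM in untreated MM1R and 2.74 to 4.04 CPM with RSL3. In MM1S, ALDOA stood at 2.21 to 3.13 CPM untreated and at 3.52 to 5.13 CPM with RSL3. SLC2A3 varied widely with RSL3, from 68.2 to 360 CPM in MM1R and from 10.8 to 263 CPM in MM1S. Without both libraries that stood apart, SLC2A3 had 1.15 (FDR = 0.0580).

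Of 20 tested genes that spend NADPH, 5 were higher and 1 lower (median 0.10). Thioredoxin reductase TXNRD1 had a log2 fold change of 0.79 (SE 0.12), carbonyl reductase CBR3 of 1.21 (SE 0.18) and quinone reductase NQO1 of 1.04 (SE 0.17). CBR3 had low levels, 1.09 to 1.51 CPM in untreated MM1R and 4.25 to 4.86 CPM in untreated MM1S. AKR1C3, an aldo-keto reductase, had 0.89 (SE 0.17), and AIFM2, which reduces coenzyme Q at the plasma membrane, had 0.70 (SE 0.13). Fatty acid synthase FASN was the gene called lower (-0.67, SE 0.20, FDR = 0.0295), and it had -0.56 without both libraries that stood apart (FDR = 0.0748). TXNRD1 stood at 211 to 264 CPM in untreated MM1R and at 283 to 462 CPM with RSL3, and at 240 to 299 and 422 to 539 CPM in MM1S.

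NRF2 targets other than NADPH-producing enzymes gave 9 genes higher and 0 lower of 15 tested, with a median of 0.62. The 6 with the smallest FDR were GCLM (1.20, SE 0.09), OSGIN1 (3.58, SE 0.32), GCLC (0.73, SE 0.07), SRXN1 (1.44, SE 0.14), HMOX1 (5.79, SE 0.59) and the cystine transporter subunit SLC7A11 (2.26, SE 0.25). GCLM and GCLC form the enzyme that starts glutathione synthesis. OSGIN1 had low levels in untreated cells, 1.16 to 1.42 CPM in MM1R and 0.45 to 0.88 CPM in MM1S. The 6 targets that were not called lay between -0.44 (ABCC2) and 0.12 (TXN), a range that held PGD at 0.05 and TKT at 0.02. ME1 at 0.32 and TALDO1 at 0.23 lay above that range and below each of the 9 called targets. Without both libraries that stood apart, 8 of 15 were higher and 0 lower, and HMOX1 had 5.08. The lists are described by their counts and medians, beside 1243 genes higher and 972 lower of 14281.

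**Figure D4:**
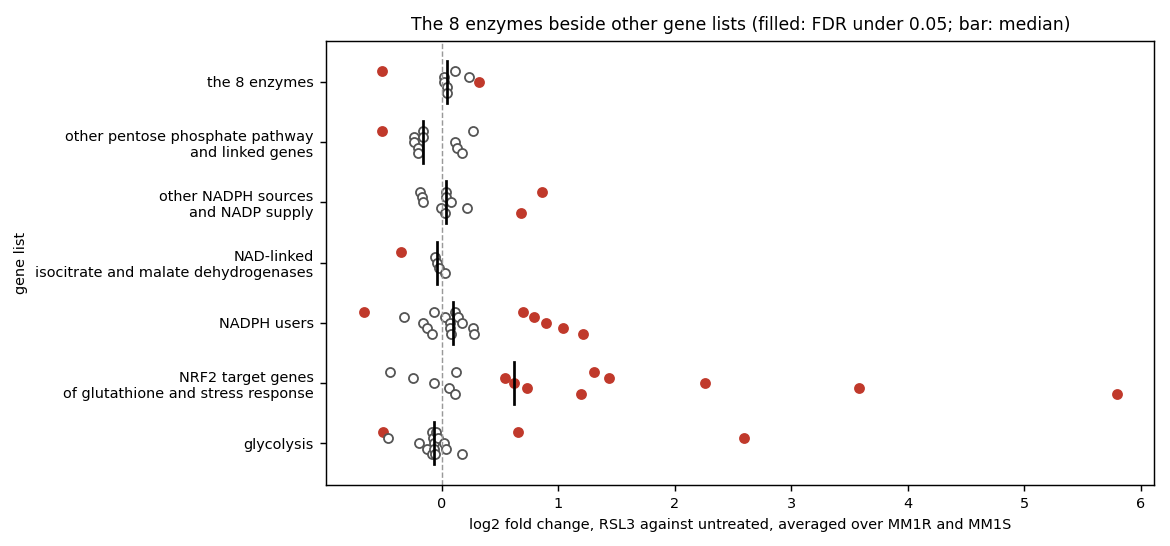
Log2 fold change for RSL3 against untreated cells averaged over MM1R and MM1S (x axis), 1 point per tested gene, for the 8 enzymes and 6 other lists (y axis). Filled points have an FDR under 0.05, and bars are medians. The 8 enzymes lie between -0.51 and 0.32, whereas 9 of 15 NRF2 targets are filled to the right of 0, up to 5.79.

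Across the 18 libraries, the genes most like each enzyme in log2 CPM were named by Pearson's r, as a description over libraries that share groups and passages. TKT was closest to TUFM (r = 0.963), TBCA (0.929) and ATP5F1B (0.926). PGD was closest to PCCB (0.939), DMAC1 (0.925) and EXOSC1 (0.917), and ME2 to SAE1 (0.922), CENPN (0.919) and C17orf53 (0.917). IDH1 was closest to ABHD8 (0.921), HECTD3 (0.916) and HOMEZ (0.915). ME1 was closest to TIGIT (0.906), CPPED1 (0.885) and UBXN8 (0.873). IDH2 was closest to RABAC1 (0.906), GPR108 (0.859) and RTL8C (0.858). PGLS was closest to TAF10 (0.898), CD151 (0.890) and STXBP2 (0.882), and TALDO1 to PSMA1 (0.880), PSMB1 (0.866) and PDZD11 (0.853).

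No enzyme of the 8 was among the closest 3 genes of another. Between enzymes, r over the 18 libraries was highest for PGD with ME1 (0.695) and PGD with ME2 (0.690). It was lowest for TALDO1 with IDH1 (-0.726), and IDH1 with IDH2 gave 0.015.

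In hg19, PGD lies on chr1:10458649-10480568 and PGLS on chr19:17622445-17632097, both on the plus strand, as do TALDO1 on chr11:747415-765012 and ME2 on chr18:48405450-48480627. TKT on chr3:53258728-53290068, ME1 on chr6:83920121-84140770, IDH1 on chr2:209100953-209130798 and IDH2 on chr15:90626277-90645709 lie on the minus strand. The annotated exons of IDH1 share 94 bases with those of IDH1-AS1, whose own row held 1 to 8 counts per library. The annotation also holds the pseudogenes PGDP1 on chromosome 18 and ME2P1 on chromosome 9, so that reads of PGD and ME2 could have been split or dropped where the copies match.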

How the data were processed

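RNA-seq was run on 18 libraries. FastQC 0.11.5, STAR 2.7.3a and DESeq2 are named per the labels, and the study's methods give the build hg19. The counting tool and its use of strand are not given in the sources used here. The authors deposited raw read counts per gene, and a second table of normalized signal, in which each count is divided by 1 size factor per library. Counts were tested here with edgeR 4.0.16 (R 4.3.3): TMM scaling, filterByExpr with a minimum count of 10, and a quasi-likelihood fit of 6 group means over 18 libraries. FDR is the Benjamini-Hochberg adjusted p over 14281 genes, and called means an FDR under 0.05. Levels are CPM (counts divided by the TMM-scaled total and put per 1000000), and log2 CPM used a prior count of 2. The labels give the passage, which pairs libraries within a line (correlation of deviations 0.034 to 0.516 in MM1R and 0.216 to 0.681 in MM1S, 9 pairs each). Its block is nested in the line. Alternatives were other scalings and filters, DESeq2 1.42.0, limma 3.58.1 on log2 of the deposited normalized signal plus 1 or plus 10, the passage block, fits of only the groups compared, and leaving out libraries. Scripts were tested on simulated data. All 8 enzymes were named in every comparison. From each list, up to 6 called genes with the smallest FDR were named, and for likeness the 3 genes with the highest r. Gene positions and transcript lengths come from GENCODE mapped to hg19. The enzymes and lists were chosen with earlier results of these data known. No protein sequences were used here.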

Additional observations from a re-analysis of the deposited data

How the results depend on the processing

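Counts of called enzymes changed under several settings. For RSL3 against untreated in MM1R, 0 enzymes became 2 with the replicate block on passage and 1 (IDH1) without both libraries that stood apart, an alternative chosen after seeing the data. In MM1S, 1 enzyme became 3 with the block and 0 with upper-quartile scaling, with only the groups compared, with a log2 fold change over 1 also required, and without both libraries that stood apart. Averaged over both lines, 2 enzymes became 3 (TALDO1 added) with the block, with DESeq2 and with the stricter filter, 1 (IDH1) with only the groups compared and 0 where a log2 fold change over 1 was required. Fer-1 + RSL3 against untreated went from 0 to 2 with the block in MM1R and to 1 in MM1S. The block changed no other count. Without both libraries that stood apart, the list of other NADPH sources and NADP supply had 3 genes higher in place of 2, and NADPH users had 6 higher and 0 lower in place of 5 and 1. Of the single-gene values under settings other than leaving out 1 library, 589 were counted as unchanged, 7 lost the threshold, 11 gained it and 9 turned sign. The 589 include uncalled values where a log2 fold change over 1 was also required, which could not gain the threshold. They also include mean paired differences with a prior count of 0.5, which have no threshold. The causes were not tested.

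Leaving out 1 library each gave 0 to 1 enzymes in MM1R, 0 to 1 in MM1S and 1 to 3 in the average for RSL3 against untreated, and 0 to 1 for Fer-1 + RSL3 against untreated in MM1R.

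Signs turned only for log2 fold changes close to 0, none of them called. ME2 with RSL3 in MM1R (-0.0033) became 0.0022 with upper-quartile scaling, 0.011 with the stricter filter (50 counts in 3 libraries), 0.0020 with the block and 0.0016 without both libraries that stood apart. ME2 between untreated lines (-0.021) became 0.014 with upper-quartile scaling, 0.0029 with the stricter filter and 0.00984 with only the groups compared. For Fer-1 + RSL3 against RSL3 in the average, ME1 became -0.074 and ME2 -0.0752 without both libraries that stood apart.

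Leaving out 1 library each, RSL3 against untreated in MM1R ranged from -0.0863 to 0.176 for PGD, -0.0409 to 0.148 for PGLS, -0.158 to 0.0717 for TKT and -0.109 to 0.0911 for ME2. In MM1S, it ranged from -0.0433 to 0.180 for PGD, -0.0010 to 0.108 for PGLS and -0.104 to 0.210 for ME2. In the average, it ranged from -0.0116 to 0.120 for PGD, -0.0383 to 0.0775 for TKT and -0.0543 to 0.106 for ME2. Fer-1 + RSL3 against RSL3 in the average ranged from -0.0533 to 0.0756 for ME1 and -0.0499 to 0.105 for ME2. Fer-1 + RSL3 against untreated in MM1R ranged from -0.183 to 0.0789 for PGD, -0.0144 to 0.223 for TALDO1 and -0.0303 to 0.170 for ME2. In MM1S, it ranged from -0.0917 to 0.142 for PGD, -0.188 to 0.0410 for PGLS, -0.109 to 0.188 for ME2 and -0.0267 to 0.140 for IDH2. Between untreated lines, it ranged from -0.0322 to 0.192 for TKT and -0.171 to 0.135 for ME2.

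With 3 libraries a group, differences inside the intervals given could not be resolved. The spread between replicates exceeded counting error in every group (chi-square per degree of freedom at least 8.31).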
